A study of Mus musculus with 6 samples.

Results

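The genes described here are the colony-stimulating factors, *Il34* and their receptors, 8 genes chosen by symbol (*Csf1*, *Csf1r*, *Il34*, *Csf2*, *Csf2ra*, *Csf2rb*, *Csf3* and *Csf3r*) from the 24062 genes counted. All 8 were listed in the deposited counts. RNA-seq had been performed on dorsal root ganglion (DRG) and tumor tissue of 6 mice, to ask which genes respond to *Runx1* and *Runx3* in neurofibroma formation. The first group was 3 *Nf1fl/fl;DhhCre* mice. The second was 3 mice whose genotype field reads *Rx1flfl;Rx3fl/fl;DhhCre* and whose extraction protocol adds *Nf1fl/fl*, so that floxed *Nf1* and *DhhCre* are shared by both groups. Both were on a C57BL/6-I129 background, and their ages are not given in the sources used here. The *Dhh* promoter drives Cre in Schwann cells (SCs) and their precursors, so that cells outside this lineage, such as macrophages, neutrophils and neurons, are not targeted. Recombination by cell type was not measured. The tissue field reads DRG for the first group and neurofibroma tumor for the second, so that genotype and tissue label cannot be told apart. Nothing in the labels says how many ganglia or tumors of a mouse went into a library.

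Colony-stimulating factors are secreted proteins that keep myeloid cells alive and direct their differentiation. CSF1 and IL-34 are unrelated in sequence but bind the same receptor tyrosine kinase, CSF1R, which macrophages and microglia need for survival. GM-CSF, encoded by *Csf2*, acts on macrophages, dendritic cells and granulocytes through a specific chain (*Csf2ra*) and a signaling chain (*Csf2rb*) that is shared with the receptors of IL-3 and IL-5. G-CSF, encoded by *Csf3*, acts through *Csf3r* and drives the production of neutrophils. Macrophages are a major immune population of neurofibromas and of injured nerve, where SCs and fibroblasts are known sources of CSF1 and neurons of CSF1 and IL-34.

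Reads assigned to genes numbered between 12439296 and 16682194 per library, and levels are given as CPM, counts relative to library size after trimmed mean of M values (TMM) scaling. At this depth 3 reads, the limit that a count of 0 allows, correspond to between 0.179 and 0.247 CPM. Such limits cover counting error only. Of the targeted genes, *Runx1* was at 131, 141 and 172 CPM in *Nf1fl/fl;DhhCre* tissue and at 84.0, 78.9 and 185 CPM in the labelled double knockouts. The highest *Runx1* level of the 6 libraries was thus that of replicate 3 with this label, and the group is named here by its label. *Runx3* was at 19.9, 15.1 and 29.9 CPM against 13.5, 10.3 and 12.1 CPM, lower in each labelled double knockout, replicate 3 included (log2 difference -0.79, limma-voom adjusted p = 0.104). In 4 libraries (*Nf1fl/fl;DhhCre* replicates 1 and 2, and replicates 2 and 3 labelled double knockout) the mouse number of the title is that of the other library of the pair in the deposited data. The labels also place 1 of the latter pair in a different sequencing run, so that each was left out in turn. Skeletal muscle genes summed to 2665 CPM in *Nf1fl/fl;DhhCre* replicate 2 and 11692 CPM in replicate 2 labelled double knockout, against 6.22 to 76.9 CPM in the other libraries. Sensory neuron genes, the defining markers of DRG, summed to 1019 to 2045 CPM in the group whose tissue field reads DRG and to 5063 to 11349 CPM in the group whose field reads neurofibroma tumor, which is against the order of these labels. The tests below measure the spread between mice of a group as labelled.

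Of the 8 genes, 6 had enough reads to be tested, and all 3 that passed both thresholds of the study (adjusted p below 0.05 and a change of more than 2-fold) were receptor chains. *Csf1r*, *Csf2ra* and *Csf2rb* fell in the labelled double knockouts. *Csf3r* was lower by less than 2-fold, and neither *Csf1* nor *Il34* passed. Over all 15652 genes tested, 13.4% passed both thresholds and 5.36% passed them as lower. *Csf2* and *Csf3* were at or near 0 in every library. The median log2 difference of the 6 tested genes was -1.06, beside 0.015 over all genes tested. In 5 of the 6, all *Nf1fl/fl;DhhCre* libraries lay above all libraries labelled double knockout, as was the case for 20.5% of all genes tested, and 42.3% did not overlap in either direction. The number of these 6 genes past both thresholds was 0 without *Nf1fl/fl;DhhCre* replicate 1 or without replicate 2 labelled double knockout, 1 without *Nf1fl/fl;DhhCre* replicate 3 and 2 without replicate 3 labelled double knockout.

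**Figure D1:**
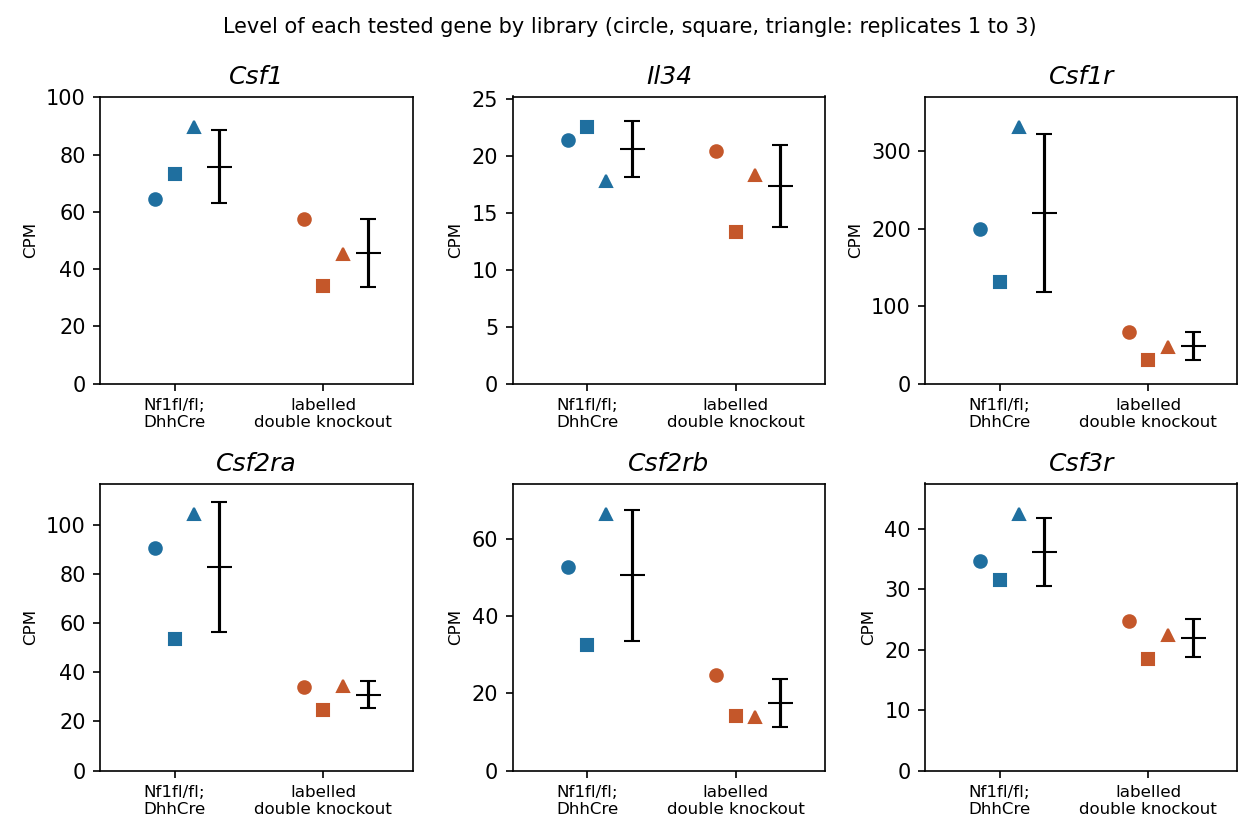
Level in CPM (vertical axis, linear from 0) of the 6 tested genes in each library, with the mean and SD of the 3 libraries of a group beside the points. The groups overlap for *Il34*, while for the other 5 genes every *Nf1fl/fl;DhhCre* library lies above every library labelled double knockout.

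*Csf1r*, on chromosome 18 (plus strand, 61100598 to 61132149 in the GRCm38 build), encodes the receptor of CSF1 and IL-34. It was at 200, 131 and 331 CPM in *Nf1fl/fl;DhhCre* replicates 1 to 3 and at 66.5, 30.7 and 47.1 CPM in replicates 1 to 3 of the labelled double knockouts. The lowest *Nf1fl/fl;DhhCre* library had more than the highest of the other group, and the *Nf1fl/fl;DhhCre* libraries also spread more widely among themselves. The log2 difference, taken as labelled double knockouts minus *Nf1fl/fl;DhhCre*, was -2.16 (SE 0.40, 95% CI -3.10 to -1.21, limma-voom adjusted p = 0.0160), a 4.46-fold decrease, and 443 of the genes tested (2.83%) had a larger decrease. With single libraries left out in turn, the change ranged from -2.44 to -1.77. It did not pass without *Nf1fl/fl;DhhCre* replicate 1 (-2.15, limma-voom adjusted p = 0.0608) or without replicate 2 labelled double knockout (-1.88, limma-voom adjusted p = 0.0511), and over all alternatives its adjusted p ranged from 7.649e-07 to 0.0608. Without replicate 3 labelled double knockout, whose *Runx1* was not lower, the *Csf1r* change was -2.17. *Csf1r* shares 873 exonic bases with *Hmgxb3* on the opposite strand, which had 328 to 512 reads per library. The strand setting of the counting is not stated, and reads of this stretch cannot be told apart.

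*Csf1*, on chromosome 3 (minus strand, 107741048 to 107760469), encodes the broadly expressed ligand of CSF1R. It was at 64.4, 73.2 and 89.5 CPM in *Nf1fl/fl;DhhCre* replicates 1 to 3 and at 57.6, 34.0 and 45.4 CPM in the labelled double knockouts. The groups did not overlap, but the nearest libraries were close. The log2 difference of -0.75 (SE 0.22, 95% CI -1.26 to -0.23, limma-voom adjusted p = 0.0533) did not pass. Its adjusted p ranged from 0.0177 to 0.189 over the alternatives and the change stayed smaller than 2-fold in each of them, with values from -0.88 to -0.56.

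*Il34*, on chromosome 8 (minus strand, 110741829 to 110805924), encodes the ligand that neurons and keratinocytes are known to make. It was at 21.4, 22.5 and 17.8 CPM in *Nf1fl/fl;DhhCre* tissue and at 20.4, 13.3 and 18.4 CPM in the others. Its groups overlapped, with *Nf1fl/fl;DhhCre* replicate 3 below replicates 1 and 3 labelled double knockout. The log2 difference was -0.26 (SE 0.21, limma-voom adjusted p = 0.429), and its 95% CI ran from -0.75 to 0.24. A decrease as large as that of *Csf1* is therefore within the interval. With 1 library omitted at a time, the *Il34* change ranged from -0.33 to -0.084.

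The balance of both ligands was compared within each library, which does not depend on gene length. The log2 ratio of *Il34* to *Csf1* was -1.58, -1.70 and -2.33 in *Nf1fl/fl;DhhCre* replicates 1 to 3 and -1.50, -1.35 and -1.30 in the labelled double knockouts. It was higher in each of the latter, by 0.49 on average, and the nearest libraries differed little. Without *Nf1fl/fl;DhhCre* replicate 3 the difference was 0.26. The two-sided p of an exact permutation test was 0.1, which is also the smallest possible value with 3 libraries against 3. Against its ligand, *Csf1r* had 3.10, 1.79 and 3.70 reads per *Csf1* read in the *Nf1fl/fl;DhhCre* libraries and 1.15, 0.903 and 1.04 in the labelled double knockouts. These ratios did not overlap and were read as a description, without a test.

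*Csf2ra*, on chromosome 19 (minus strand, 61223957 to 61228429), encodes the chain that binds GM-CSF. It was at 90.9, 53.6 and 104 CPM in *Nf1fl/fl;DhhCre* replicates 1 to 3 and at 33.9, 24.6 and 34.3 CPM in the labelled double knockouts. The lowest *Nf1fl/fl;DhhCre* library, replicate 2, was well above the highest of the other group. The log2 difference was -1.37 (SE 0.29, 95% CI -2.05 to -0.69, limma-voom adjusted p = 0.0219), a 2.59-fold decrease. With 1 library omitted at a time it passed in 3 of 6 fits, not without *Nf1fl/fl;DhhCre* replicate 1 (-1.25) or 3 (-1.14) or replicate 2 labelled double knockout (-1.22). Without replicate 3 labelled double knockout the *Csf2ra* change was -1.46.

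*Csf2rb*, on chromosome 15 (plus strand, 78325752 to 78353847), encodes the signaling chain that GM-CSF, IL-3 and IL-5 receptors share. It was at 52.9, 32.7 and 66.5 CPM in *Nf1fl/fl;DhhCre* tissue and at 24.8, 14.1 and 13.9 CPM in the labelled double knockouts. The same *Nf1fl/fl;DhhCre* library as for *Csf2ra* was lowest, and the groups did not overlap. The log2 difference was -1.52 (SE 0.35, 95% CI -2.33 to -0.71, limma-voom adjusted p = 0.0261), a 2.87-fold decrease. With 1 library omitted at a time it passed in 2 of 6 fits, those without *Nf1fl/fl;DhhCre* replicate 2 and without replicate 1 labelled double knockout. Without replicate 3 labelled double knockout it was -1.36 (limma-voom adjusted p = 0.0792), and over all alternatives the adjusted p of *Csf2rb* ranged from 1.790e-04 to 0.0898.

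Mouse *Csf2rb* lies beside a near copy, *Csf2rb2*, on the minus strand from 78282507 to 78305721, whose product is a chain of the IL-3 receptor. Of the windows of 50 bases along the longest *Csf2rb* transcript, 18.4% also occur in that of *Csf2rb2*, so that counting could have split or dropped these reads. *Csf2rb2* was at 28.0, 17.4 and 40.5 CPM in *Nf1fl/fl;DhhCre* tissue and at 16.7, 11.6 and 16.3 CPM in the labelled double knockouts (log2 difference -0.86, SE 0.35, limma-voom adjusted p = 0.125), which did not pass. Reads on *Csf2rb* per read on *Csf2rb2* were 1.89, 1.88 and 1.64 in the first group and 1.48, 1.22 and 0.854 in the second. When the reads of both genes were summed before the fit, an alternative added after the data were seen, the log2 difference was -1.24 (SE 0.32, limma-voom adjusted p = 0.0360) and both thresholds were passed.

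*Csf3r*, on chromosome 4 (plus strand, 126024550 to 126044440), encodes the G-CSF receptor of neutrophils and their precursors. It was at 34.7, 31.6 and 42.5 CPM in *Nf1fl/fl;DhhCre* tissue and at 24.7, 18.5 and 22.5 CPM in the labelled double knockouts. The groups did not overlap. The log2 difference was -0.72 (SE 0.19, 95% CI -1.16 to -0.28, limma-voom adjusted p = 0.0377), a 1.65-fold difference that did not reach the 2-fold threshold. *Csf3r* had an adjusted p above 0.05 in 5 of 6 fits with 1 library omitted, all but the fit without *Nf1fl/fl;DhhCre* replicate 2, with changes from -0.77 to -0.56.

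The genes of the secreted factors GM-CSF and G-CSF had almost no reads. *Csf2*, on chromosome 11 (minus strand, 54247271 to 54249667), had 1 read in *Nf1fl/fl;DhhCre* replicate 3 and 0 in the other 5 libraries. *Csf3*, on the plus strand of the same chromosome from 98701263 to 98703629, had 0 reads in all 6. Every library was thus below the 3 reads that a count of 0 allows, neither gene was tested, and no fold is given. The ligands *Il3* and *Il5* of related receptors had 0 reads and at most 1.04 CPM, respectively, and were not tested.

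**Figure D2:**
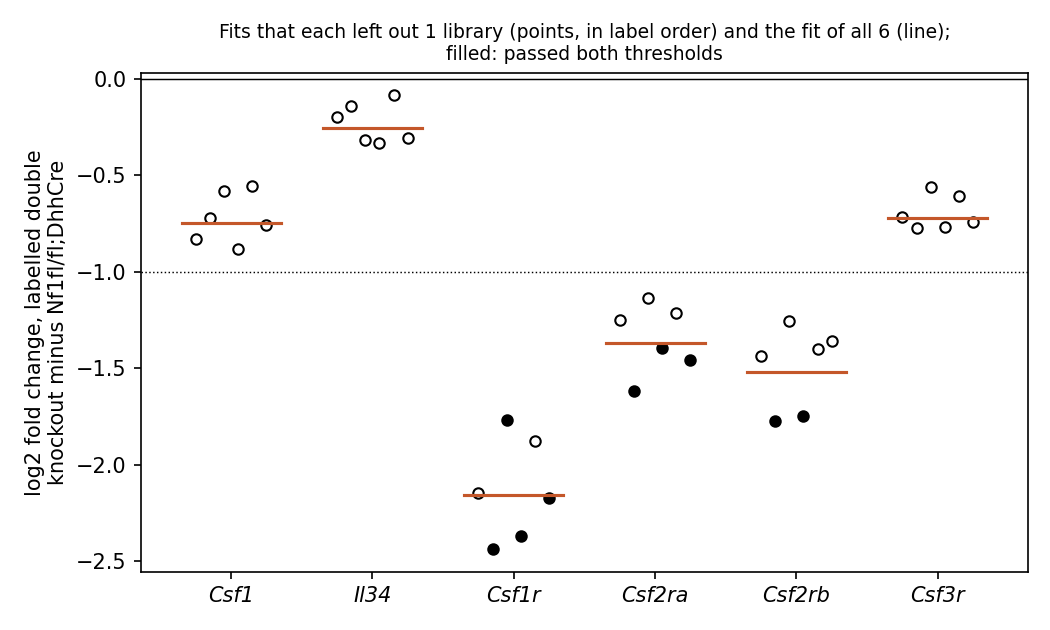
Log2 fold change (vertical axis) of each tested gene in 6 fits with 1 library omitted from each, as points, and in the fit of all libraries, as a line, with filled points where both thresholds were passed. All 36 points lie below 0, *Csf1r* passed in 4 of its 6 fits, *Csf2ra* in 3 and *Csf2rb* in 2.

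Levels of different genes were compared per kilobase of the longest protein-coding transcript in GENCODE M21. In the *Nf1fl/fl;DhhCre* libraries *Csf1r* (46.9 ± 21.7 CPM per kb, SD, n = 3) and *Csf2ra* (44.9 ± 14.3) had the highest levels, and their ranges overlapped. *Csf1* followed at 18.1 ± 3.06, with no overlap with either neighbour in the order. *Il34* (11.5 ± 1.37), *Csf3r* (10.4 ± 1.61) and *Csf2rb* (10.3 ± 3.47) were lowest, each overlapping the next. In the libraries labelled double knockout *Csf2ra* was first at 16.7 ± 2.97 CPM per kb, with a range that overlapped those of *Csf1* and *Csf1r*. *Csf1* (10.9 ± 2.83), *Csf1r* (10.2 ± 3.82) and *Il34* (9.67 ± 2.03) came next with overlapping ranges, and *Csf3r* (6.29 ± 0.904) and *Csf2rb* (3.60 ± 1.27) were lowest. The range of *Csf3r* lay below that of *Il34* and overlapped that of *Csf1r*, and *Csf2rb* lay below all the others. *Csf1r* thus stood above both of its ligands in every *Nf1fl/fl;DhhCre* library and overlapped them in the labelled double knockouts. With the union of all annotated exons as the length, the order was the same in the first group, and in the second *Csf1*, *Csf1r* and *Il34* changed places among themselves.

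**Figure D3:**
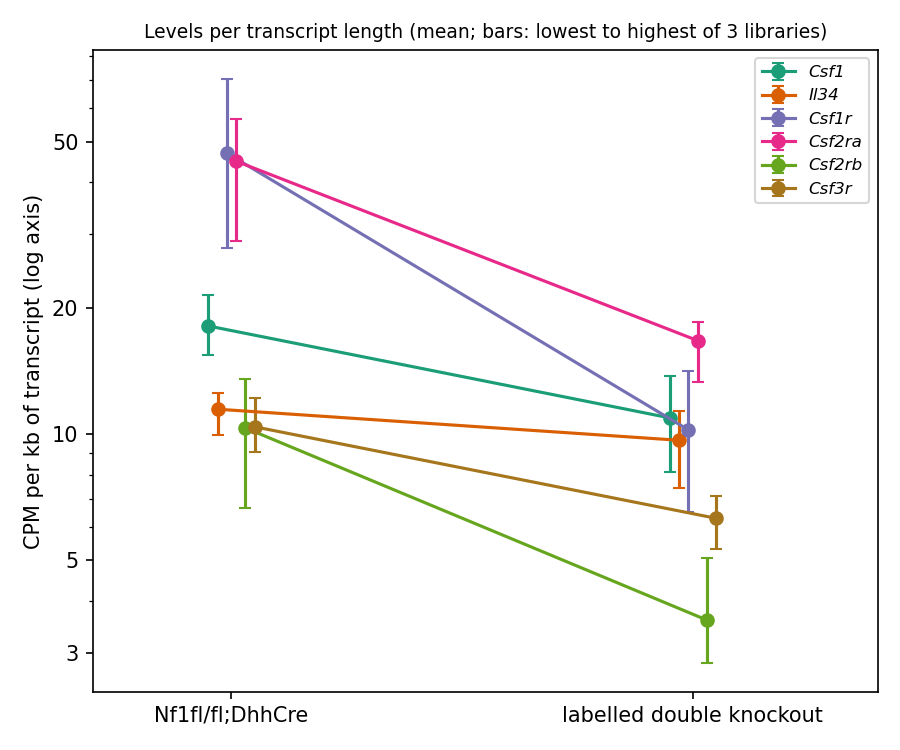
Level in CPM per kb of transcript (log axis) of the 6 tested genes in both groups, with points for the mean of 3 libraries and bars from the lowest to the highest. *Csf1r* goes from 46.9 to 10.2 and meets *Csf1* and *Il34*, whose levels are 10.9 and 9.67 in the labelled double knockouts.

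Promoter sequences were looked up because RUNX factors and PU.1, the master regulator of myeloid genes, are known to act on promoters of this family. RefSeq windows of GRCm38.p6, 250 bases before to 50 after the annotated start, were matched for 4 of the 8 genes (*Csf1*, *Csf2*, *Csf2ra* and *Csf3r*). The *Csf2* window (chr11:54249850-54250149, minus strand) lies wholly upstream of the GENCODE M21 gene start at 54249667. The bases next to that *Csf2* start were therefore not searched. They were searched on both strands for TGTGGT (a RUNX core), GAGGAA (a PU.1 core) and TGANTCA (AP-1, which reads the same on both strands). TGTGGT was found in none of the 4 windows and is present in 16.8% of the 32851 windows of the same length. TGANTCA was also found in none of the 4, beside 7.8% of all windows. GAGGAA was found in *Csf2ra* and *Csf3r*, beside 28.3% of all windows. The 250 bases before the start of these receptor genes are shown, with the PU.1 letters in capitals, since they are the receptor genes for which a match was found.
Csf2ra: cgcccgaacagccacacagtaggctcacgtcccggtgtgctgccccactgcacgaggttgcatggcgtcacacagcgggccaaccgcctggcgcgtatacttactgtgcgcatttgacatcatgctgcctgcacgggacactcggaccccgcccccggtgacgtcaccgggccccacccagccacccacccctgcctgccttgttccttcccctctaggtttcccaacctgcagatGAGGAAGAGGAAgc
Csf3r: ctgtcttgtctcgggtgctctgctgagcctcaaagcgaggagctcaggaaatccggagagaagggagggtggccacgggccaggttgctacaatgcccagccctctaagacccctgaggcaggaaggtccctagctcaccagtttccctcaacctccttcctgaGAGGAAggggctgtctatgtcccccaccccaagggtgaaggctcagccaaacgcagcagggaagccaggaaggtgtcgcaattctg
The *Csf2ra* sequence is chr19:61228419-61228668 on the minus strand, with adjoining matches that begin 14 and 8 bases before the start. The *Csf3r* sequence is chr4:126024409-126024658 on the plus strand, with its match beginning 86 bases before the start. Both starts are those of RefSeq, which lie downstream of the GENCODE M21 gene starts that bound the positions given above, so that the matches fall inside those bounds in part or whole. A match of these letters is a description of the sequence and not a binding site.

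CSF1R is a defining receptor of macrophages, and markers of that cell type moved with it. Of 14 macrophage genes, all tested, 10 fell past both thresholds and none rose, with a median log2 difference of -2.16 beside 0.015 over all genes. Of all genes tested, 5.36% fell past both thresholds. Their summed level was 1315 to 2261 CPM in the *Nf1fl/fl;DhhCre* libraries and 276 to 612 CPM in the labelled double knockouts. None of the 14 was at 0 in any library. The number that fell was 1 without *Nf1fl/fl;DhhCre* replicate 1, 6 without *Nf1fl/fl;DhhCre* replicate 3 and 5 without replicate 2 labelled double knockout. The F4/80 gene *Adgre1*, listed under its older symbol *Emr1*, went from 82.0 ± 28.2 to 15.1 ± 6.91 CPM (SD, n = 3 each), and *Itgam*, which encodes the integrin chain CD11b, was at 670, 468 and 936 CPM against 126, 46.0 and 122 CPM. In bulk tissue, fewer cells of a type and less RNA per cell cannot be told apart.

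The *Csf1r* level was then set against the macrophage genes of the same library. Its log2 CPM exceeded the mean log2 CPM of the 14 genes by 1.87, 1.75 and 2.26 in *Nf1fl/fl;DhhCre* replicates 1 to 3 and by 1.83, 1.96 and 1.66 in the labelled double knockouts. The groups overlapped and differed by -0.14, with a two-sided p = 0.6 in an exact permutation test whose smallest possible p is 0.1. Without *Nf1fl/fl;DhhCre* replicate 3 the difference was 0.011. The macrophage genes themselves fell (median log2 difference -2.16). Any gene that fell less than they did, or did not change, therefore moves up on this scale. The other tested genes moved up in this way, as a description without a test. On this scale *Csf2ra* differed by 0.64, *Csf2rb* by 0.50, *Csf3r* by 1.30, *Csf1* by 1.27 and *Il34* by 1.76. The groups overlapped for *Csf2rb*, and for the other 4 every library labelled double knockout was higher.

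**Figure D4:**
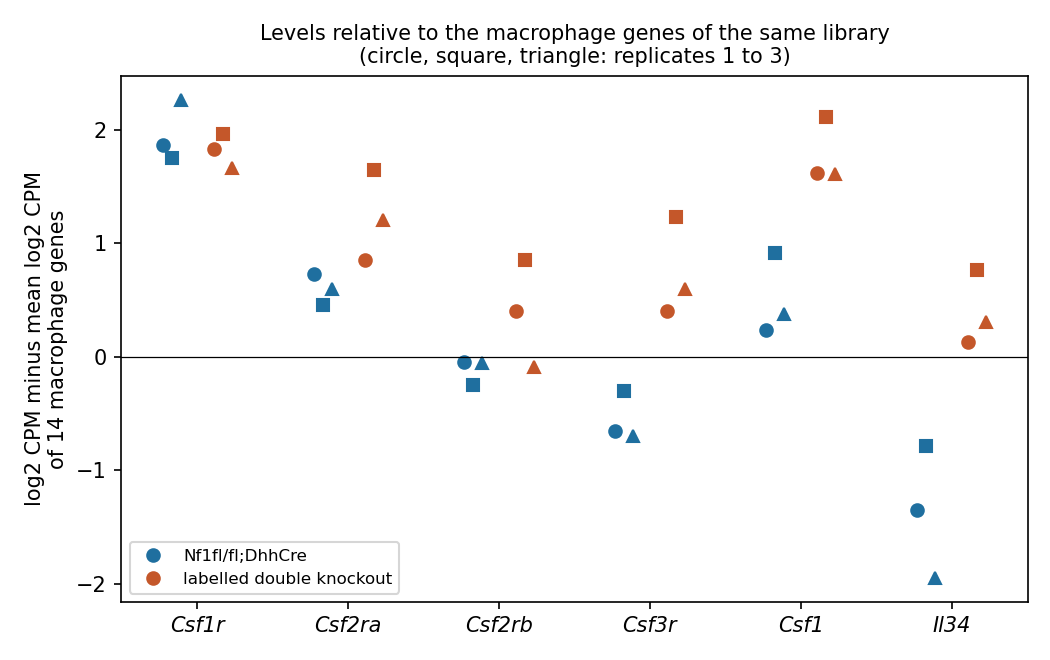
Log2 CPM of each gene minus the mean log2 CPM of 14 macrophage genes in the same library (vertical axis), with a point for each library colored by group. *Csf1r* stays between 1.66 and 2.26 in all 6 libraries, while *Csf3r*, *Csf1* and *Il34* are higher in each library labelled double knockout. The macrophage genes fell in that group, so that genes that fell less are higher on this axis.

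Markers of other cells that carry these receptors were counted in the same way, beside 5.36% of all genes tested that fell and 8.03% that rose. Of 11 neutrophil genes 10 were listed and 8 were tested, and none passed. Their median log2 difference was 1.01, but those of *S100a8*, *Mpo*, *Ngp*, *Ltf* and *Mmp8* took either sign with 1 library omitted, and no direction is read from the list. The granule gene *S100a9* was at 3.05, 46.7 and 0.321 CPM in the *Nf1fl/fl;DhhCre* libraries and 13.9, 7.32 and 28.7 CPM in the labelled double knockouts, so that the groups overlapped. *Retnlg* (22.4, 5.48 and 7.57 CPM against 1.67, 1.07 and 2.18 CPM) and the chemokine receptor gene *Cxcr2* (56.7, 53.6 and 54.9 CPM against 50.8, 50.4 and 52.5 CPM) had lower values in every labelled double knockout without passing the test. They are 2 of the 8, beside 20.5% of all genes tested that were lower without overlap, and no decrease of the list is read from them. Of 7 dendritic cell genes 6 were tested and 2 fell, with a median of -2.20, *Clec9a* (-2.66, SE 0.29), which passed in all 6 fits with 1 library omitted, and *Flt3* (-1.74), which passed in 0 of them. Of 4 eosinophil genes, 2 were tested and *Ccr3* fell, from 2.44 to 10.3 CPM in the *Nf1fl/fl;DhhCre* libraries to 0 reads in the others, a call that passed in 1 of 6 fits with 1 library omitted. Of 9 T and NK cell genes, 8 were listed, 7 were tested and 1 fell (median -1.98, the call passing in 2 of 6 such fits), and of 7 mast cell genes none passed (median -0.75).

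Marker genes of cells that could supply the ligands were also counted, beside the same shares of all genes tested (5.36% lower and 8.03% higher). All 10 sensory neuron genes rose (median 2.40) in the labelled double knockouts. The tissue field of this group reads neurofibroma tumor, while the paper describes the tissue as DRG/tumors. With 1 library omitted at a time, *Snap25* passed in all 6 fits, *Tubb3* in 2 and the other neuron genes in 4 or 5. Of 8 fibroblast genes 4 fell (median -1.04), with sums of 9190 to 9869 CPM against 3404 to 5628 CPM, and these passed in 6 (*Dcn*), 5 (*Lum*), 3 (*Col1a2*) and 1 (*Pdgfra*) of such fits. Of 10 SC genes 4 rose and none fell (median 0.23), and among those that rose *S100b* passed in all 6 such fits, *Gap43* in 5 and *Ngfr* in 2. None of 7 endothelial genes (median 0.52) and none of 10 skeletal muscle genes (median 1.44) passed. The part of these cells in the levels of *Csf1* and *Il34* was not tested. With both muscle-rich libraries left out, an alternative added after the data were seen, *Csf1r*, *Csf2ra* and *Csf2rb* passed both thresholds, and *Il34* was at -0.0027.

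The pathway around these receptors was followed in a list of 33 further genes, of which 30 were tested. In the libraries labelled double knockout 12 of them fell past both thresholds and none rose, beside 5.36% of all genes lower and 8.03% higher. The median log2 difference was -0.84, beside 0.015 over all genes. Without *Nf1fl/fl;DhhCre* replicate 1 the number was 3, and without replicates 1, 2 or 3 labelled double knockout it was 6, 5 and 6. Many of these genes are expressed mainly in myeloid cells. The macrophage markers moved with them, as did the dendritic cell markers (median log2 difference -2.20, 2 of 6 tested passing). None of the tested neutrophil markers passed. The part of macrophage or dendritic cell markers in the result was not tested.

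Of 7 adaptors and phosphatases, 4 fell. *Tyrobp*, which encodes the adaptor DAP12 that couples to CSF1R signaling, was at 38.1, 31.1 and 63.8 CPM against 7.65, 4.44 and 8.19 CPM (log2 difference -2.66, SE 0.41, limma-voom adjusted p = 0.0113). *Inpp5d*, which encodes the lipid phosphatase SHIP1, changed by -2.40 (SE 0.35), and *Ptpn6*, which encodes the phosphatase SHP-1, by -2.31 (SE 0.66). The docking protein gene *Gab2* changed by -1.14 (SE 0.12), with 153, 166 and 176 CPM against 77.6, 68.1 and 78.6 CPM. *Tyrobp*, *Inpp5d* and *Gab2* passed in all 6 fits with 1 library omitted, and *Ptpn6* in 1. The ubiquitin ligase gene *Cbl* was lower by less than 2-fold (-0.62, SE 0.13), *Trem2* was at -1.11 (SE 0.54) and *Grb2* at -0.20 (SE 0.25).

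Of 7 kinase genes, 4 fell, among them *Fgr*, *Syk* and *Lyn*, which encode tyrosine kinases of hematopoietic cells. *Fgr* was at 20.4, 10.4 and 27.7 CPM against 1.28, 1.97 and 2.97 CPM (log2 difference -3.13, SE 0.68, limma-voom adjusted p = 0.0228). *Syk* changed by -2.17 (SE 0.54) and *Lyn* by -1.98 (SE 0.32). With 1 library omitted at a time, *Lyn* passed in 5 of 6 fits and *Fgr* and *Syk* in 2 each, as did *Socs3*, *Irf8* and *Sdc1*, described next. *Jak2*, the kinase that binds the shared chain of the GM-CSF receptor, was at -0.70 (SE 0.21, limma-voom adjusted p = 0.0600) and did not pass. The phosphoinositide 3-kinase subunit genes *Pik3cd* and *Pik3r1* were at -0.82 (SE 0.29) and -0.06 (SE 0.13).

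Of 6 STAT genes and STAT target genes, 1 fell. The inhibitor gene *Socs3* was at 7.42, 10.1 and 9.81 CPM against 2.15, 1.89 and 4.42 CPM (log2 difference -1.73, SE 0.37, limma-voom adjusted p = 0.0229). *Stat3*, *Stat5a* and *Stat5b*, which transmit the signals of these receptors, had values of -0.02 (SE 0.15), -0.22 (SE 0.25) and 0.05 (SE 0.21). The STAT5 target genes *Cish* and *Pim1* were at 1.01 (SE 0.54) and 0.07 (SE 0.48), and their groups overlapped.

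Of 6 myeloid transcription factor genes 2 fell, among them *Irf8* (-2.45, SE 0.53), which encodes a factor of monocyte and dendritic cell development. *Spi1*, which encodes PU.1, was at 12.2, 8.70 and 22.2 CPM against 3.83, 0.740 and 4.36 CPM. Its log2 difference of -2.42 (SE 0.71, limma-voom adjusted p = 0.0533) did not pass. *Maf*, which encodes a macrophage factor that further cell types also express, was higher by less than 2-fold (0.62, SE 0.12, limma-voom adjusted p = 0.0181). *Cebpa* and *Cebpb* were at 0.27 (SE 0.88) and -0.13 (SE 0.77). Outside the receptor chain, *Sdc1*, a syndecan reported to bind IL-34, fell (-1.31, SE 0.32), and *Ptprz1*, another IL-34 receptor, was at -0.26 (SE 0.28). The IL-5 receptor gene *Il5ra* was at -0.46 (SE 0.61), and *Il3ra* had too few reads to be tested.

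**Figure D5:**
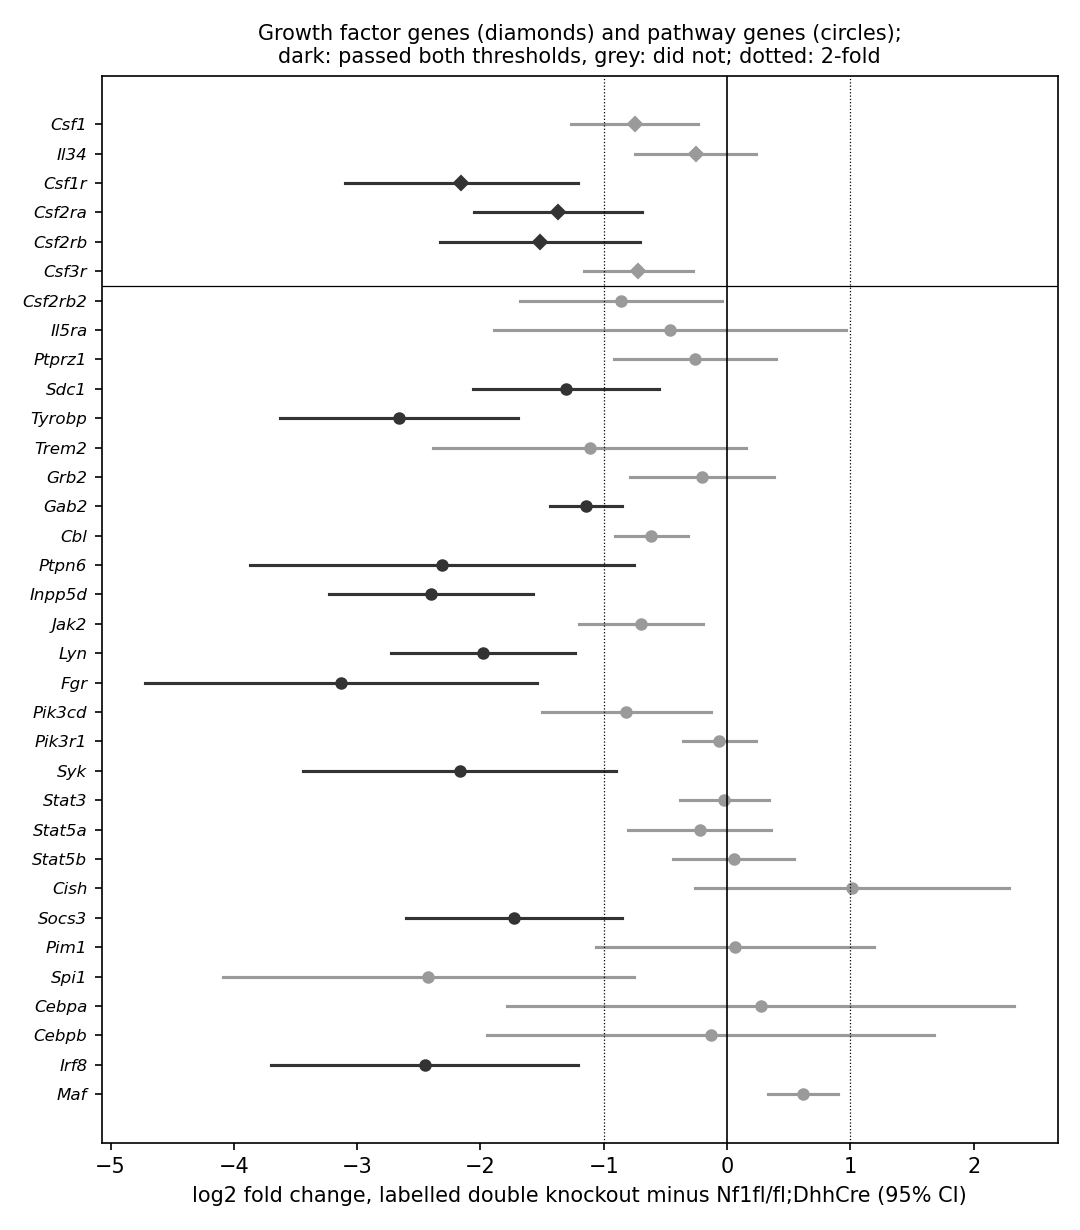
Log2 fold change with its 95% CI (horizontal axis) for the 6 tested genes of the family, as diamonds, and 28 of the 30 tested genes of the pathway list, as circles, dark where both thresholds were passed. The dark symbols, 3 of the family and 10 of the list, all lie below -1.

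The levels of the receptor genes varied together across libraries. Over the 6 libraries the Pearson correlation of log2 CPM with *Csf1r* was 0.997 for *Csf3r*, 0.981 for *Csf2ra* and 0.979 for *Csf2rb*. It was 0.939 for *Csf1* and 0.545 for *Il34*. These values are descriptions, since the libraries share the genotype difference and 6 points carry them. Of 10216 other genes whose average log2 CPM reached 3, the 3 most like *Csf1r* were *Nfam1*, *Ntn1* and *Synpo* (each r = 0.998). Those most like *Csf2ra* were *Cd180*, *Ccnd3* and *Cysltr1* (r of 0.997 to 0.998), those most like *Csf2rb* were *Nfatc1*, *Rnd3* and *Twsg1* (0.996 to 0.998), and those most like *Csf3r* were *Rpl12*, *Rhog* and *Mb21d1* (0.9987 to 0.9998). *Csf1* was most like *Ucp2*, *Il17ra* and *Bak1* (0.986 to 0.990), and *Il34* most like *Pomt2*, *Man2c1* and *Wac* (0.985 to 0.988).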

How the data were processed

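Total RNA of DRG/tumors was amplified with a NuGEN Ovation kit and made into Nextera XT libraries. The deposited values are counts, whole numbers of paired-end reads that the authors aligned to mm10 with TopHat and assigned to genes with featureCounts, without normalization. The annotation, strand setting and treatment of multiply aligned reads are not given in the sources used here.

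TMM factors and limma-voom (R 4.3.3, limma 3.58.1) were used as in the study's methods. The 2096 genes that passed both thresholds here are fewer than the paper reports at the same thresholds. The cause of this gap was not tested. Genotype was the only term in the model, and the genes tested were those that filterByExpr of edgeR 4.0.16 retained at its settings of 10 reads and a total of 15. Adjusted p-values are Benjamini-Hochberg values over all 15652 genes tested. CPM used TMM library sizes, and within-library log2 levels a prior count of 0.5. The tests of edgeR (quasi-likelihood) and DESeq2 1.42.0 were run as alternatives, as were DESeq2 size factors, no scaling beyond library size, CPM over 1 in 3 or more libraries as the filter, every gene with a read, sample quality weights and omission of each library. Named were all 8 genes, *Runx1* and *Runx3*, genes of the pathway list, marker genes and the 3 genes most like each tested gene. Some genes of the lists are counted but not reported singly here. The members and lists were chosen with earlier results of these data known. Gene positions came from GENCODE M21, and 2 marker genes were found under older symbols. Replicate numbers were given in accession order. Chi-square statistics per degree of freedom between libraries of a group were 21.7 to 133, and no library was a copy of another. The fit across all genes was tested on simulated data, but no outcome of that test is reported here.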

Additional observations from a re-analysis of the deposited data

How the results depend on the processing

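With all 6 libraries kept, the 7 alternative settings left *Csf1r*, *Csf2ra* and *Csf2rb* past both thresholds and *Csf1*, *Il34* and *Csf3r* outside them, each in the same direction. Scaling by library size only moved *Csf1r* to -2.24, and other settings stayed between that and -2.16. Leaving out 1 library moved the counts most. Over these 6 fits the number of genes past both thresholds ranged from 362, without *Nf1fl/fl;DhhCre* replicate 1, to 2285, from 2096 with all libraries. The number among the 8 growth factor and receptor genes ranged from 0, without *Nf1fl/fl;DhhCre* replicate 1 or without replicate 2 labelled double knockout, to 3, with *Csf1r* alone remaining without *Nf1fl/fl;DhhCre* replicate 3. In the pathway list it ranged from 3 to 15. The *Csf1r* level relative to macrophage genes ranged from -0.25 to 0.011 and the log2 ratio of *Il34* to *Csf1* from 0.26 to 0.63. Fewer libraries enter these fits, and other causes of the loss of calls were not tested. With 3 libraries in a group, an exact permutation test cannot reach p = 0.05. No paired analysis was possible because the labels give no replicate numbers that pair mice across genotypes.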
